A study of Mus musculus with 36 samples.

Results

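Rab proteins are the largest branch of the Ras superfamily of small GTPases, and each marks particular membranes of the cell. Bound to GTP, a Rab recruits effectors such as tethers, motors and lipid kinases, and bound to GDP it is drawn off the membrane by a GDP dissociation inhibitor. Exchange factors switch Rabs on and GTPase-activating proteins switch them off. In macrophages, Rabs are known for carrying phagosomes from early to late stages, for delivering cytokines such as TNF to the cell surface and for moving Toll-like receptor 4, the LPS receptor, between compartments.

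The Rab genes were taken by symbol, as Rab followed by digits and at most a letter suffix, so that interacting proteins, effectors and activating proteins named after a Rab stayed out. The rule found 59 of the 16416 genes in the table, of which 57 are protein-coding Rab GTPases and 2, Rab10os and Rab26os, are RNAs from the opposite strand of a Rab gene that match by letters alone. The nearest symbol outside the rule was Rab3il1, an exchange factor. Of the 59, 47 were tested because at least 3 libraries held a value of 10 or more after undoing the log, a low-value floor of 3.32 in log2 units, and 42 of those reached it in every library. Rab15, Rab30, Rab37, Rab38 and Rab3a passed with some libraries under the floor. The 12 that did not pass were Rab17, Rab25, Rab26, Rab26os, Rab33a, Rab36, Rab39b, Rab3b, Rab3c, Rab40b, Rab42 and Rab44, whose log2 values lay between -3.07 and 2.39. Rab17 and Rab25 are best known from epithelia and Rab3b and Rab3c from neurons and endocrine cells.

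RNA was sequenced from mouse bone marrow-derived macrophages (BMDM), grown for 7 days in medium with 10% fetal calf serum and 10% L929 supernatant, a source of M-CSF. The cells carried Tnip2[D310N], a point mutation in the gene for ABIN2, a ubiquitin-binding adaptor of the kinase TPL-2, or were wild type (WT). Both genotypes received 100 ng/ml lipopolysaccharide (LPS) for 30, 60, 120, 240 or 360 min or were left unstimulated (0 min), with 3 libraries in each of the 12 groups and 36 in all. The labels give no mouse strain, sex, age or batch and do not say whether replicates came from separate mice, so p-values measure the spread between these libraries, which may be technical. Values are the authors' normalised log2 values, with no read depth known, and the mutation, which the header of the table writes D309N, is called D310N after the sample titles.

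Of the 36 libraries, 34 lay nearest the mean of their own group over all tested genes and 33 over the Rab genes. The exceptions were all WT at 360 min. Replicate 1 of that group is called WT-360-1 here. Over all tested genes, WT-360-1 lay at a root-mean-square distance of 0.19 (log2) from the mean of the WT 240 min group and 0.369 from the mean of the other WT 360 min libraries. Over the Rab genes the distances were 0.164 from the WT 240 min group and 0.411 from its own. It was the sole library of the 36 whose nearest group over all tested genes had another time. WT 360 min replicate 2 was nearest the D310N 360 min group, at 0.256 against 0.266 from its own over all tested genes and 0.222 against 0.264 over the Rab genes. Replicate 3 was nearest the D310N 360 min group over the Rab genes alone, at 0.208 against 0.247 from its own. Every 360 min value of WT cells holds this library, and 360 min results that rest on it are given without it too. It also enters the spread that limma shares over all times for each gene. SE and p-values at every time therefore depend on it. All 7 macrophage markers were tested and their summed level was 17.6 to 18 in D310N libraries and 17.7 to 18 in WT libraries. Averaged over the times, the macrophage integrin gene Itgam was 0.206 higher in D310N cells (adjusted p = 3.07e-11, limma) and Csf1r 0.0768 higher (adjusted p = 0.00398). The others were lower. Mertk differed by -0.179 (adjusted p = 8.14e-05), Fcgr1 by -0.17 (adjusted p = 7.67e-05) and Lyz2 by -0.137 (adjusted p = 2.08e-05). Cd14 differed by -0.124 (adjusted p = 0.00043) and Adgre1 by -0.0751 (adjusted p = 0.00586). Of 4 dendritic cell markers, 3 passed the floor and Flt3 did not, and their summed level was between 6.37 and 6.47 at 240 min and between 4.24 and 4.4 at 0 min in D310N cells, and between 6.32 and 6.6 at 240 min and between 4.13 and 4.45 at 0 min in WT cells. Of the dendritic cell markers, Zbtb46 averaged 0.181 higher in D310N cells (adjusted p = 0.0375, limma) and Clec9a 0.29 higher (adjusted p = 0.0296). Xcr1 differed by 0.00642 (adjusted p = 0.941). The defining B cell markers were all under the floor. The neutrophil list, with 2 of 7 markers over the floor, summed to 4.31 to 5.24 in D310N libraries and 4.14 to 4.89 in WT libraries, and both of these markers averaged higher in D310N cells, S100a8 by 0.33 (adjusted p = 0.000223) and S100a9 by 0.262 (adjusted p = 0.00493). The T and NK cell list, over the floor through Cd4 alone, summed to 5.98 to 7.02 in D310N libraries and 6.42 to 7.16 in WT libraries, with an average Cd4 difference of -0.397 (adjusted p = 2.55e-05). The mast cell and platelet list, over the floor through Pf4 alone, summed to 9.93 to 10.5 in D310N libraries and 9.82 to 10.2 in WT libraries, and Pf4 averaged 0.209 higher in D310N cells (adjusted p = 1.21e-05). Of 5 fibroblast markers Col1a2 alone passed, and it averaged 0.552 higher in D310N cells (adjusted p = 0.00534, limma). The adjusted p-values of these averages take all libraries of a genotype as separate. The part of these markers in the Rab results was not tested.

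Per kilobase of the longest annotated transcript, the most abundant Rab messages in unstimulated cells were Rab7, the Rab of late endosomes and lysosomes, at a log2 level per kb of 11.89 in D310N cells and 11.79 in WT cells, and Rab5c of early endosomes, at 11.2 in D310N cells and 11.13 in WT cells. Rab8b, Rab1a, Rab14 and Rab1b came next in both genotypes. Rab7b ranked 29 among the tested Rab genes at 240 min and 7 at 0 min, in both genotypes. Rab12 ranked 8 in D310N cells and 6 in WT cells at 240 min, and 15 at 0 min in both. Ranks of neighbours rest on an annotated length and were not tested.

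Most of the tested Rab genes changed with LPS, few of them at 30 min and most by 120 min. At 30 min 1 Rab gene was called higher and 0 lower in D310N cells, where 5.16% of all tested genes were called higher and 1.48% lower, and 1 was called higher and 0 lower in WT cells, where 4.79% of genes were higher and 1.3% lower (limma, Benjamini-Hochberg adjusted p under 0.05). At an unadjusted p under 0.05, 3 Rab genes passed in D310N cells and 8 in WT cells. The share of all genes at that threshold is not given, so these counts do not set Rab genes apart. The one called gene was Rab20 in both.

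At 60 min the deposited values gave 13 Rab genes higher and 5 lower in D310N cells and 14 higher and 6 lower in WT cells, but quantile normalisation of the same values turned these counts to 6 higher and 15 lower in D310N cells and 6 higher and 14 lower in WT cells. The background of the deposited values in D310N cells was 21.3% of genes higher and 17.2% lower, and in WT cells 20.1% higher and 17.1% lower. After quantile normalisation 46.3% of all genes were called in either direction in D310N cells and 45.4% in WT cells. At 120 min 23 Rab genes were higher and 12 lower in D310N cells (31.9% and 32.1% of all genes) and 25 were higher and 11 lower in WT cells (32.4% and 34.2%), against 14 higher and 15 lower in D310N cells and 16 higher and 16 lower in WT cells after quantile normalisation. With that scaling 65.8% of all genes were called in either direction in D310N cells and 67.8% in WT cells.

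At 240 min 28 Rab genes were higher and 11 lower in D310N cells, beside 39% and 40.2% of all genes, and 29 were higher and 12 lower in WT cells, beside 39.6% and 40.4%. Quantile normalisation gave 20 higher and 20 lower in D310N cells and 22 higher and 19 lower in WT cells. Its background was 32% of all genes higher and 45.2% lower in D310N cells, and 33.5% higher and 45% lower in WT cells. At 360 min 28 were higher and 11 lower in D310N cells (39% and 41% of all genes) and 29 were higher and 13 lower in WT cells (39.3% and 41%), against 21 higher and 16 lower in D310N cells and 23 higher and 18 lower in WT cells after quantile normalisation. With that scaling 77.9% of all genes were called in either direction in D310N cells and 78.8% in WT cells. The shares called were near those of all genes at 240 and 360 min. The split into higher and lower depended on the scaling, and printed 240 min values that reversed or moved by over 1.5 times with quantile normalisation are given with that value too. These counts include Rab30 and Rab38, which passed the floor through libraries at 120 min or later. They also include Rab3a, which passed through libraries at 0, 30, 60 and 360 min. Rab37, counted as lower in WT cells at 240 and 360 min, passed through WT libraries at 0, 30 and 60 min alone. All of these had to differ in level, so their calls are no test. The median Rab difference at 240 min was 0.32 in D310N cells and 0.33 in WT cells on the log2 scale, while the median over all tested genes was -0.02 in both.

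**Figure D1:**
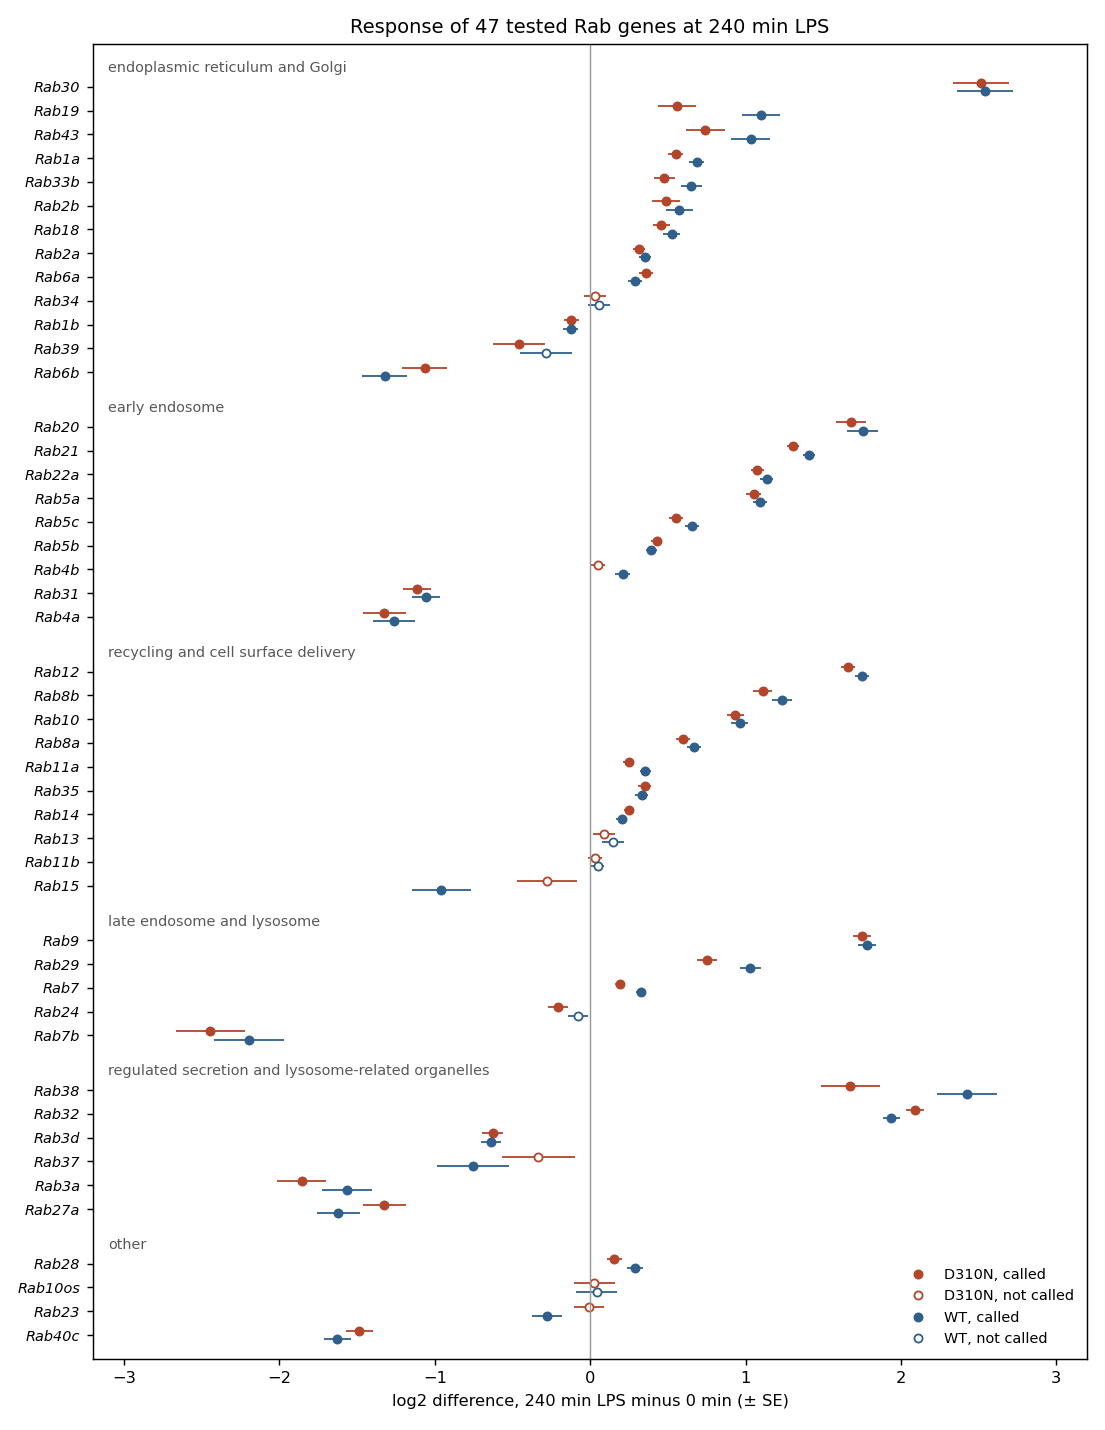
Log2 difference between 240 min LPS and 0 min (x axis, ± SE from limma, 3 libraries per group) for the 47 tested Rab genes, grouped by the membrane on which each is best known; D310N is drawn above WT, and filled points passed an adjusted p of 0.05. On the deposited scale Rab30, Rab38, Rab32, Rab9, Rab20 and Rab12 lie farthest right in WT cells and Rab7b farthest left in both genotypes.

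Rab genes moved alike in both genotypes at most times. The share of all tested genes called in both genotypes is not given, so this does not set Rab genes apart. At 240 min 79.1% of all genes were called in D310N cells and 80% in WT cells. At 240 min 37 Rab genes were called in D310N and in WT cells and all 37 had the same direction, 2 were called in D310N alone (Rab24 and Rab39) and 4 in WT alone (Rab15, Rab23, Rab37 and Rab4b). Rab37 reached the floor in early WT libraries alone, so its call in WT cells is no test of a fall. After quantile normalisation Rab39 was not called in D310N cells (adjusted p = 0.47) and Rab23 was not called in WT cells (adjusted p = 0.373). At 360 min 39 were called in both, again all in the same direction. At 120 min 33 were called in both and 31 had the same direction, the exceptions being Rab19 and Rab29, which are described with the genotype comparison.

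Among Rabs of the early endosome, which sort freshly internalised receptors and phagosomes, 6 of 9 tested genes rose and 2 fell in D310N cells at 240 min, and 7 rose and 2 fell in WT cells. All tested genes were split evenly at that time, with 39% higher and 40.2% lower in D310N cells and 39.6% higher and 40.4% lower in WT cells. After quantile normalisation 4 of the 9 rose and 4 fell in D310N cells and 5 rose and 4 fell in WT cells, beside 32% of all genes higher and 45.2% lower in D310N cells and 33.5% higher and 45% lower in WT cells. Rab20, which is induced by interferon-gamma and by hypoxia and acts on maturing phagosomes in macrophages, was the one Rab gene called at 30 min. In D310N cells its log2 values were 7.10, 7.09 and 7.02 (0 min), 7.90, 7.88 and 7.75 (30 min), 9.09, 9.14 and 9.11 (60 min), 8.14, 8.05 and 8.09 (120 min), 8.77, 8.75 and 8.74 (240 min) and 9.22, 9.34 and 9.28 (360 min). In WT cells they were 7.37, 7.26 and 7.17 (0 min), 8.01, 8.28 and 7.98 (30 min), 9.31, 9.35 and 9.27 (60 min), 8.26, 8.17 and 8.27 (120 min), 9.07, 9.11 and 8.88 (240 min) and 8.92, 9.57 and 9.48 (360 min). Rab20 thus had an early peak at 60 min, and all 6 values at 120 min lay below all values at 60 and at 240 min. The rise at 60 min was 2.04 ± 0.10 in D310N cells (adjusted p = 1.34e-17) and 2.04 ± 0.10 in WT cells (adjusted p = 1.41e-17; limma, log2 difference ± SE). The gene lies on chromosome 8 (11453518 to 11478710 on the minus strand, GRCm38), with E230013L22Rik annotated on the other strand and Gm20100 on the same one.

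Rab5a, whose protein drives fusion of early endosomes, rose slowly. Its values in D310N cells were 11.83, 11.72 and 11.72 (240 min) and 10.72, 10.71 and 10.69 (0 min), and in WT cells 11.81, 11.70 and 11.72 (240 min) and 10.57, 10.67 and 10.71 (0 min), with no overlap between times. The rise was 1.05 ± 0.05 in D310N cells (adjusted p = 9.77e-20) and 1.09 ± 0.05 in WT cells (adjusted p = 3.4e-20), and after quantile normalisation 0.53 in D310N cells and 0.55 in WT cells. Rab21, which acts in integrin uptake, rose by 1.31 ± 0.04 in D310N cells and 1.41 ± 0.04 in WT cells (0.85 in D310N and 0.91 in WT cells after quantile normalisation), and Rab22a by 1.07 ± 0.04 in D310N cells and 1.14 ± 0.04 in WT cells. The paralogs Rab5b and Rab5c rose less, by 0.43 and 0.55 in D310N cells and 0.39 and 0.66 in WT cells, and after quantile normalisation the values were -0.17 and -0.155 in D310N cells and -0.27 and -0.11 in WT cells. Rab31, the closest relative of Rab22a, fell instead, with differences of -1.11 ± 0.09 in D310N cells and -1.055 ± 0.09 in WT cells, or -1.58 in WT cells after quantile normalisation, and Rab4a of fast recycling fell by 1.32 ± 0.14 in D310N cells and 1.26 ± 0.14 in WT cells. Its paralog Rab4b differed by 0.05 ± 0.05 in D310N cells, which was not called, and rose by 0.21 ± 0.05 in WT cells, or 0.14 after quantile normalisation.

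The promoters of Rab5a and Rab21, 2 of the risers, are shown because both hold the CLEAR palindrome, the element bound by TFEB and its relatives at genes of lysosomes. It is an E-box (CACGTG) with GT before it and AC after it, reads alike on both strands and so overlaps the E-box search by construction. It was found in 3 of the 40 tested members with an entry in the RefSeq promoter table (GRCm38.p6, windows spanning the start), Rab5a, Rab21 and Rab24, and in 0.37% of the 27025 genes in that table. The E-box alone was found in 7 of the 40 and in 8.09% of all genes, and the CRE TGACGTCA in Rab5a alone among them and in 2.03% of all genes. Capitals mark matches to any of these. The Rab5a sequence is chr17:53478984-53479283 on the plus strand, the Rab21 sequence chr10:115315542-115315841 on the minus strand.
Rab5a: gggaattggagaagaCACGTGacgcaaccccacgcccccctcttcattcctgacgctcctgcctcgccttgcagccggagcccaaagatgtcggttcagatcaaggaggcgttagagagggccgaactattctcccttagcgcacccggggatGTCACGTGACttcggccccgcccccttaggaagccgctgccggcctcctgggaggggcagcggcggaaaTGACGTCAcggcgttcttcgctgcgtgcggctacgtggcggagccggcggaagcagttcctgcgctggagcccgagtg
Rab21: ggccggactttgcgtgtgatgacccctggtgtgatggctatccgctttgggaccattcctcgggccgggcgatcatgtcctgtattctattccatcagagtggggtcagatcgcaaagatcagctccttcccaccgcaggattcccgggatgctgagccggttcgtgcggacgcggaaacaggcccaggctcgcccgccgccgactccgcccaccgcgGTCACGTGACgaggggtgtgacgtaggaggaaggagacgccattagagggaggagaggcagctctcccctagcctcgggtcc
These letters describe the window and are no evidence of binding.

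Rabs of late endosomes and lysosomes were split. Of 5 tested, 3 rose and 2 fell in D310N cells at 240 min and 3 rose and 1 fell in WT cells. After quantile normalisation 2 rose and 3 fell in D310N cells and 2 rose and 2 fell in WT cells. Of all tested genes, 39% were higher and 40.2% lower in D310N cells, and 39.6% higher and 40.4% lower in WT cells. After quantile normalisation these shares were 32% and 45.2% in D310N cells and 33.5% and 45% in WT cells. Rab9, which returns mannose 6-phosphate receptors from late endosomes to the Golgi, had log2 values of 10.63, 10.51 and 10.57 (240 min) and 8.79, 8.84 and 8.82 (0 min) in D310N cells, and 10.69, 10.69 and 10.65 (240 min) and 8.88, 8.95 and 8.87 (0 min) in WT cells. The times did not overlap, and the change was a 3.36-fold rise in D310N cells (adjusted p = 1.08e-22) and a 3.44-fold rise in WT cells (adjusted p = 6.08e-23). At 60 min its difference was 0.03 ± 0.06 in D310N cells and 0.09 ± 0.06 in WT cells, neither of them called. Rab7 itself rose by 0.19 ± 0.03 in D310N cells and 0.33 ± 0.03 in WT cells at 240 min, and turned to -0.50 in D310N cells and -0.49 in WT cells after quantile normalisation. Rab24, known from autophagy, fell by 0.20 ± 0.06 in D310N cells and differed by -0.08 ± 0.06 in WT cells, which was not called.

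Rab7b, which acts between endosomes and the trans-Golgi network and lowers Toll-like receptor 4 in mouse macrophages, was the Rab gene with the deepest fall at 240 min. In D310N cells its values were 12.35, 12.32 and 12.32 (0 min), 12.24, 12.22 and 12.22 (30 min), 11.85, 11.86 and 11.83 (60 min), 10.75, 10.88 and 10.71 (120 min), 9.85, 9.91 and 9.90 (240 min) and 11.74, 11.66 and 11.79 (360 min). In WT cells they were 12.19, 12.17 and 12.14 (0 min), 12.06, 12.09 and 12.05 (30 min), 11.76, 11.80 and 11.75 (60 min), 10.68, 10.81 and 10.71 (120 min), 10.04, 9.94 and 9.92 (240 min) and 9.91, 11.70 and 11.74 (360 min). The message fell until 240 min and was back near its 60 min level at 360 min in 5 of 6 libraries, the exception being WT-360-1, at 9.91. At 240 min it was at 0.184 of its 0 min level in D310N cells (log2 difference -2.44 ± 0.22, adjusted p = 1.86e-11) and 0.218 in WT cells (-2.195 ± 0.22, adjusted p = 1.93e-10). Its difference at 360 min in WT cells was -1.05 with that library (-1.68 after quantile normalisation) and -0.44 ± 0.04 without it. The genotype difference at 360 min, 0.61 ± 0.22 (adjusted p = 0.0565), was 0.01 ± 0.04 without it (adjusted p = 0.888). The SE of 0.22 at 240 min also holds the spread of that library. Rab7b lies on chromosome 1 from 131688695 to 131715439 on the plus strand, and Rab29 lies further along the same strand at 131867224 to 131872887.

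The promoter of Rab9 is shown for its NF-kB letters, since NF-kB is the factor that LPS is best known to activate, and that of Rab24 for the CLEAR palindrome in a gene that did not rise. GGG and TTTCC with 2 free bases between them, on either strand, was found in 3 of the 40 matched members (Rab15, Rab28 and Rab9) and in 1.89% of all genes. The Rab9 sequence is chrX:166479818-166480117 on the minus strand, with the match read on the opposite strand, and the Rab24 sequence is chr13:55321931-55322230 on the minus strand.
Rab9: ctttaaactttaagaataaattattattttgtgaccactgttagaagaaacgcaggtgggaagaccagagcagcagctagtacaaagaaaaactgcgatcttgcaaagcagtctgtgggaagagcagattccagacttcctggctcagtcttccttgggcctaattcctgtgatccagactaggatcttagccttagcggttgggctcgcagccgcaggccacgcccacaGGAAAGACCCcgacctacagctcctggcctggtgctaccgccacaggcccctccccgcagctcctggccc
Rab24: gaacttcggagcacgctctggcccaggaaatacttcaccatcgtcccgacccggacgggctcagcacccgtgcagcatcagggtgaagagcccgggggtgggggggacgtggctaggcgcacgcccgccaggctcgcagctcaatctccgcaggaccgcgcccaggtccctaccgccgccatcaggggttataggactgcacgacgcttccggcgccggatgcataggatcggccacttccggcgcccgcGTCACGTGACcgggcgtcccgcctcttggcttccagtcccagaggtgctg
No NF-kB match and 1 E-box were found in this window of Rab20.

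Rabs of recycling endosomes and of delivery to the cell surface rose in 7 of 10 tested genes in both genotypes at 240 min, with 0 lower in D310N cells and 1 lower, Rab15, in WT cells. All tested genes were about as often lower as higher at that time (39% higher and 40.2% lower in D310N, 39.6% and 40.4% in WT cells). After quantile normalisation 5 of the 10 rose and 3 fell in D310N cells and 5 rose and 4 fell in WT cells. The background of that scaling was 32% of all genes higher and 45.2% lower in D310N cells, and 33.5% and 45% in WT cells. Rab12, which steers transferrin receptor from recycling endosomes to lysosomes, had values of 11.64, 11.56 and 11.57 (240 min) and 9.94, 9.93 and 9.91 (0 min) in D310N cells, and 11.66, 11.67 and 11.66 (240 min) and 9.87, 9.87 and 10.00 (0 min) in WT cells. Its rise of 1.66 ± 0.04 in D310N cells (adjusted p = 3.23e-25) and 1.75 ± 0.04 in WT cells (adjusted p = 7.3e-26) was steady, with differences of 0.62 in D310N cells and 0.63 in WT cells at 60 min. Rab8b, a carrier from the Golgi to the plasma membrane, rose by 1.11 ± 0.06 in D310N cells and 1.23 ± 0.06 in WT cells, against 0.38 in D310N cells and 0.39 in WT cells after quantile normalisation. Its paralog Rab8a rose by 0.60 ± 0.04 in D310N cells and 0.67 ± 0.04 in WT cells, against 0.11 in D310N cells and 0.13 in WT cells with that scaling. Rab10, which brings Toll-like receptor 4 to the surface of mouse macrophages, rose by 0.93 ± 0.05 in D310N cells and 0.96 ± 0.05 in WT cells, which quantile normalisation lowered to 0.28 in D310N cells and 0.26 in WT cells. Rab11a, Rab14 and Rab35 rose by 0.20 to 0.35 in both genotypes, and after quantile normalisation the values were -0.24, -0.42 and -0.02 in D310N cells and -0.15, -0.51 and -0.05 in WT cells. Rab11b and Rab13 were not called in either genotype.

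Of 13 tested Rabs of the endoplasmic reticulum and Golgi, 9 rose and 3 fell in D310N cells at 240 min, and 9 rose and 2 fell in WT cells, beside 39% of all genes higher and 40.2% lower in D310N cells and 39.6% higher and 40.4% lower in WT cells. After quantile normalisation 5 of the 13 rose and 5 fell in D310N cells and 6 rose and 4 fell in WT cells. Of all genes, 32% were then higher and 45.2% lower in D310N cells, and 33.5% higher and 45% lower in WT cells. Rab30, a Golgi Rab, was under the floor in every library up to 60 min and passed it in 13 of 36, all at 120 min or later, so its change is given with no test. Its values in D310N cells were 3.99, 4.45 and 4.40 (240 min) and 1.93, 1.59 and 1.78 (0 min), and in WT cells 4.60, 4.51 and 4.58 (240 min) and 2.05, 2.08 and 1.93 (0 min). The times did not overlap, with a difference of 2.51 in D310N cells and 2.54 in WT cells on a deposited scale whose treatment of low values is not stated. With 8 added to the linear value before the log, the difference was 1.27 in D310N cells and 1.39 in WT cells.

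Rab43, which acts between the endoplasmic reticulum and Golgi, rose late. Its values in D310N cells were 10.63, 10.73 and 10.65 (0 min), 11.45, 11.39 and 11.41 (240 min) and 12.40, 12.27 and 12.42 (360 min), and in WT cells 10.70, 10.66 and 10.64 (0 min), 11.76, 11.77 and 11.57 (240 min) and 11.64, 12.65 and 12.53 (360 min). At 240 min the rise was 0.74 ± 0.12 in D310N cells and 1.03 ± 0.12 in WT cells, against 0.26 in D310N cells and 0.48 in WT cells after quantile normalisation. WT-360-1 again sat among the 240 min values, and without it the 360 min rise was 1.69 ± 0.05 in D310N cells and 1.92 ± 0.05 in WT cells. The SE of 0.12 at 240 min also holds the spread of that library. Rab6a and Rab6b, paralogs that tether Golgi vesicles, went apart at 240 min. Rab6b fell by 1.07 ± 0.15 in D310N cells (adjusted p = 8.34e-08) and 1.32 ± 0.15 in WT cells (adjusted p = 1.02e-09), while Rab6a rose by 0.36 ± 0.05 in D310N cells and 0.29 ± 0.05 in WT cells and was -0.13 in D310N cells and -0.21 in WT cells after quantile normalisation. Rab1a rose by 0.55 ± 0.05 in D310N cells and 0.69 ± 0.05 in WT cells, and Rab2a by 0.32 ± 0.04 in D310N cells and 0.35 ± 0.04 in WT cells, and quantile normalisation gave -0.14 and -0.17 in D310N cells and -0.06 and -0.145 in WT cells. Rab1b fell by 0.12 ± 0.05 in both, or by 0.63 in D310N cells and 0.64 in WT cells after quantile normalisation.

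Among the 6 tested Rabs of regulated secretion and lysosome-related organelles, 2 rose and 3 fell in D310N cells at 240 min, and 2 rose and 4 fell in WT cells, and after quantile normalisation 2 rose and 4 fell in both. Of all tested genes, 39% were higher and 40.2% lower in D310N cells, and 39.6% higher and 40.4% lower in WT cells. With quantile normalisation these shares were 32% and 45.2% in D310N cells and 33.5% and 45% in WT cells. Rab38, Rab3a and Rab37 passed the floor through some times or 1 genotype alone. These counts therefore rest in part on the filter. The higher ones were Rab32 and Rab38, close paralogs that build melanosomes and related organelles. Rab32, which also acts against bacteria in macrophage vacuoles, had values of 11.69, 11.63 and 11.72 (240 min) and 9.59, 9.59 and 9.59 (0 min) in D310N cells, and 11.72, 11.58 and 11.71 (240 min) and 9.70, 9.74 and 9.76 (0 min) in WT cells. It rose 4.26-fold in D310N cells (adjusted p = 3.79e-25) and 3.83-fold in WT cells (adjusted p = 2.74e-24), and it was already 1.86 ± 0.06 higher on the log2 scale in D310N cells and 1.74 ± 0.06 higher in WT cells at 120 min. Rab38 reached the floor in 17 of 36 libraries, all at 120 min or later, so its change is given with no test, and its values are listed with the genotype comparison. The difference at 240 min was 1.67 in D310N cells and 2.43 in WT cells, or 0.913 in D310N cells and 1.55 in WT cells with 8 added to the linear value.

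The fallers of that group were exocytic Rabs. Rab27a, which docks lytic granules and exosome-bearing endosomes at the plasma membrane, fell by 1.325 ± 0.14 in D310N cells (adjusted p = 3.21e-10) and 1.62 ± 0.14 in WT cells (adjusted p = 2.96e-12), and it was lower still at 360 min, by 1.77 ± 0.14 in D310N cells and 1.94 ± 0.14 in WT cells. Rab3a, known from synaptic vesicles, had a V-shaped course. Its means in D310N cells were 4.51, 4.84, 3.22, 2.85, 2.65 and 3.44 at 0, 30, 60, 120, 240 and 360 min, and in WT cells 4.46, 4.82, 3.58, 2.94, 2.90 and 3.67. It reached the floor in 21 of the 36 libraries and in none at 120 or 240 min, so its change is given with no test. The difference at 240 min was -1.86 in D310N cells and -1.565 in WT cells, or -1.11 in D310N cells and -0.955 in WT cells with 8 added to the linear value. Rab3d of secretory granules fell by 0.63 ± 0.07 in D310N cells and 0.64 ± 0.07 in WT cells.

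Rab40c stands outside these membranes, since its protein carries a SOCS box and joins a Cullin5 ubiquitin ligase. It fell fast and stayed low. Its values in D310N cells were 8.88, 8.83 and 8.83 (0 min), 8.76, 8.83 and 8.86 (30 min), 7.43, 7.40 and 7.36 (60 min), 7.40, 7.28 and 7.14 (120 min), 7.37, 7.38 and 7.34 (240 min) and 7.77, 7.75 and 7.85 (360 min). In WT cells they were 8.92, 8.96 and 8.96 (0 min), 8.96, 9.05 and 8.85 (30 min), 7.64, 7.54 and 7.54 (60 min), 7.19, 7.08 and 6.98 (120 min), 7.33, 7.29 and 7.34 (240 min) and 7.12, 7.60 and 7.67 (360 min). At 60 min the fall was 1.45 ± 0.09 in D310N cells (adjusted p = 2.97e-15) and 1.37 ± 0.09 in WT cells (adjusted p = 1.15e-14). Rab40c lies on chromosome 17 from 25882114 to 25919727 on the minus strand with 3 genes annotated on the other strand.

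**Figure D2:**
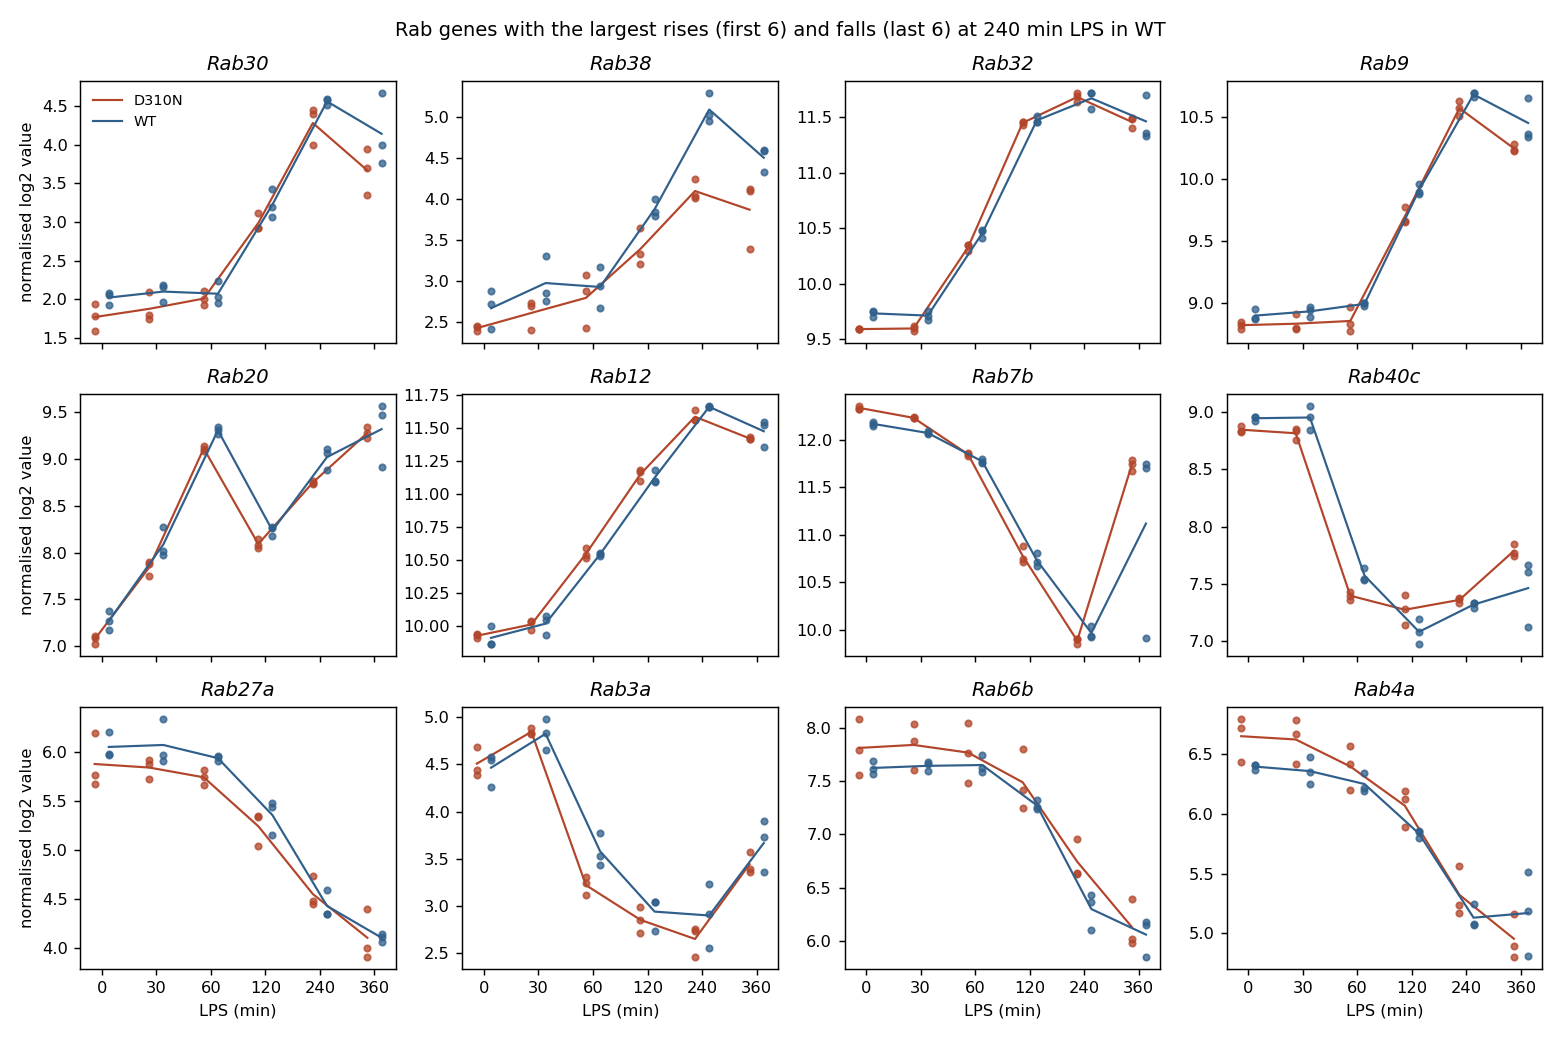
Normalised log2 values (y axis) against time with LPS in min (x axis, equally spaced) for the 6 Rab genes with the largest rises and the 6 with the largest falls at 240 min in WT; points are libraries, lines join group means, and D310N is drawn left of WT at each time. The single WT point at 9.91 for Rab7b and at 7.12 for Rab40c at 360 min is the library that lay nearest the WT 240 min group.

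The genes that load, recycle and switch Rabs were examined as 5 lists, chosen by function. Of 38 tested exchange factors, 18 rose and 13 fell at 240 min in D310N cells and 17 rose and 14 fell in WT cells, with a median of 0.03 in D310N cells and 0.06 in WT cells, beside a median of -0.02 over all tested genes and 39% higher and 40.2% lower in D310N cells and 39.6% higher and 40.4% lower in WT cells. Of 38 tested GTPase-activating proteins, 9 rose and 18 fell in D310N cells (median -0.15) and 8 rose and 23 fell in WT cells (median -0.31). Of 44 tested effectors, 13 rose and 21 fell in D310N cells and 14 rose and 23 fell in WT cells, with medians of -0.05 in D310N cells and -0.15 in WT cells. Of 7 genes for prenylation and GDP dissociation inhibitors, 2 rose and 3 fell in D310N cells and 1 rose and 3 fell in WT cells, and of 5 Rab-like GTPases 2 rose and 3 fell in D310N cells and 2 rose and 1 fell in WT cells. After quantile normalisation 15 exchange factors rose and 15 fell in D310N cells and 16 rose and 17 fell in WT cells, and 9 activating proteins rose and 21 fell in D310N cells and 8 rose and 25 fell in WT cells. With that scaling 11 of 43 tested effectors rose and 21 fell in D310N cells and 11 rose and 24 fell in WT cells. These effector counts leave out Dennd5a, which was listed as an effector by its other name, Rab6ip1. In the counts of the deposited values Dennd5a is both an effector and an exchange factor. Of the prenylation and inhibitor genes 4 fell in D310N cells and 5 fell in WT cells. Of the Rab-like GTPases 2 rose and 1 fell in D310N cells and 3 rose and 1 fell in WT cells. The background of quantile normalisation was 32% of all genes higher and 45.2% lower in D310N cells, and 33.5% and 45% in WT cells. In WT cells the Rab5 exchange factor Rin2 rose by 2.17 ± 0.04, Dennd3, an exchange factor for Rab12, rose by 2.15 ± 0.20 and Rab3il1 fell by 2.62 ± 0.14. The activating proteins Tbc1d2 and Tbc1d16 fell by 2.29 ± 0.10 and 2.15 ± 0.11 in WT cells, while Tbc1d1 rose by 2.09 ± 0.07. The effector Mical1 fell by 2.66 ± 0.08 and the phosphatase Inpp5b rose by 2.15 ± 0.04.

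Fewer Rab genes were called between the genotypes at any single time than with LPS at 60 min or later. D310N cells had 0 Rab genes called higher and 1 called lower than WT cells at 0 min (3.64% and 7.09% of all genes), 1 higher and 1 lower at 30 min (4.43% and 7.78%), and 0 higher and 4 lower at 60 min (4.89% and 7.96%). The 4 include Rab37, which reached the floor in WT libraries alone, so its call is no test. There were 3 higher and 6 lower at 120 min (7.94% and 9.72%), 2 higher and 7 lower at 240 min (6.98% and 10% of all genes) and 1 higher and 5 lower at 360 min (6.8% and 9.52%). At an unadjusted p under 0.05, 7 passed in either direction at 0 min and 12 at 60 min, with no share of all genes at that threshold given. Quantile normalisation gave 1 higher and 2 lower at 0 min, 0 higher and 2 lower at 30 min, 1 higher and 3 lower at 60 min, 2 higher and 3 lower at 240 min and 2 higher and 4 lower at 360 min. With that scaling 12.7%, 14.1%, 13.8%, 14.4% and 13.4% of all genes were called in either direction at these times. In all, 18 of the 47, or 38.3%, were called at 1 or more of the 6 times, beside 38.4% of all tested genes. By sign alone, 15 (31.9%) were lower in D310N cells at all 6 times, beside 18.7% of all genes, and 4 (8.51%) were higher at all 6, beside 16.1%, with no test of these shares.

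Averaged over the 6 times, 7 Rab genes were higher and 19 lower in D310N cells, beside 22.7% of all genes higher and 25.4% lower. Libraries with the same replicate number within D310N deviated together for some genes, as for Rab6b, where replicate 2 was the highest of the 3 at every time. The average was therefore also tested on 1 mean per replicate number and genotype, 3 against 3, an alternative chosen after the data had been seen. That gave 2 higher, Rab6a and Rab33b, and 12 lower, beside 14.8% of all genes higher and 18.1% lower. The 12 were Rab15, Rab19, Rab29, Rab38, Rab37, Rab13, Rab20, Rab3d, Rab9, Rab8a, Rab1a and Rab22a. These 14 were called under every alternative in which they were tested, but Rab37 reached the floor in WT libraries alone.

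**Figure D3:**
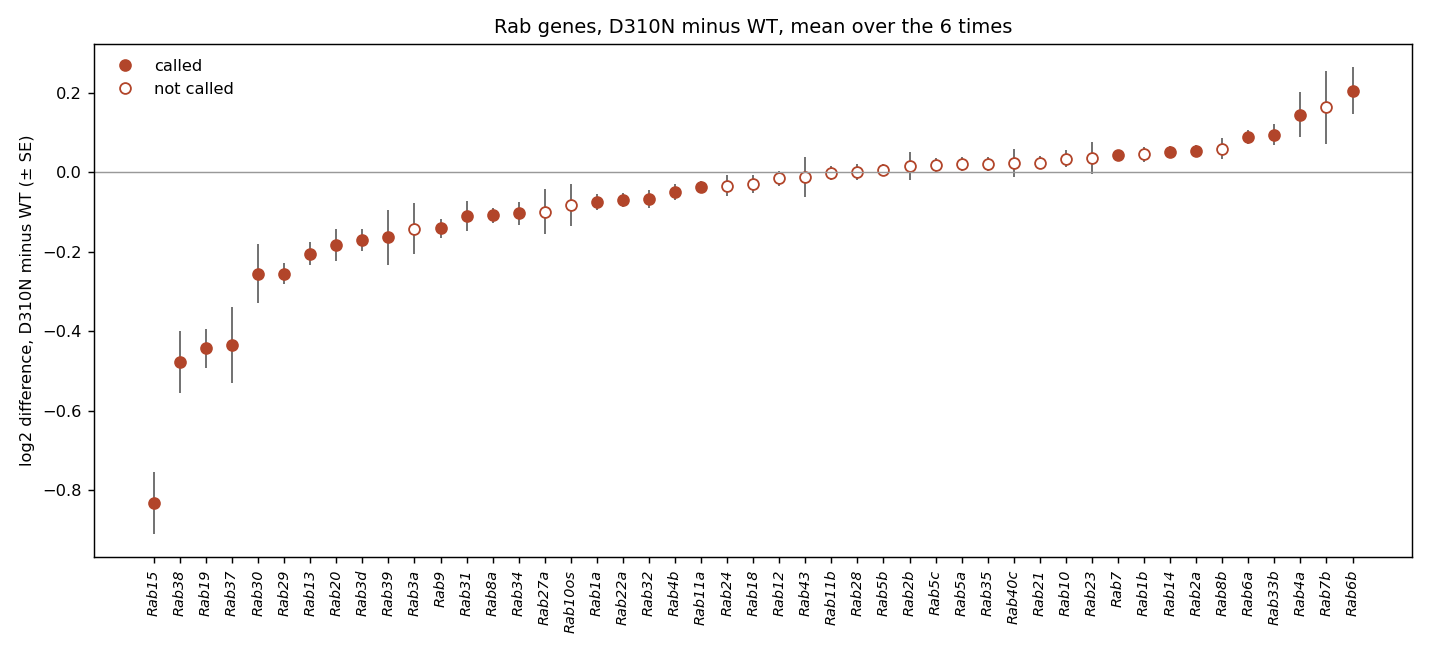
Log2 difference between D310N and WT, mean over the 6 times (y axis, ± SE from limma, 18 libraries per genotype), for the 47 tested Rab genes in rising order; filled points passed an adjusted p of 0.05. Rab15 is lowest at -0.83 and Rab6b highest at 0.21.

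Rab15, which slows receptor recycling through the pericentriolar compartment, differed most and was the one Rab gene called at 0 min. Its values in D310N cells were 3.96, 4.53 and 4.02 (0 min), 4.22, 4.28 and 4.28 (30 min), 4.04, 4.48 and 4.18 (60 min), 4.03, 4.66 and 4.20 (120 min), 3.85, 4.26 and 3.57 (240 min) and 3.30, 4.04 and 3.58 (360 min). In WT cells they were 5.10, 5.28 and 5.47 (0 min), 5.36, 5.14 and 5.36 (30 min), 5.41, 5.10 and 5.58 (60 min), 5.09, 5.15 and 5.33 (120 min), 4.31, 4.23 and 4.43 (240 min) and 4.04, 3.77 and 4.30 (360 min). All D310N libraries were below all WT libraries up to 120 min, and the groups overlapped at 240 and 360 min. The difference was -1.11 ± 0.19 at 0 min (adjusted p = 0.000125), -1.03 ± 0.19 at 30 min (adjusted p = 0.000277), -1.13 ± 0.19 at 60 min (adjusted p = 9.31e-05) and -0.90 ± 0.19 at 120 min (adjusted p = 0.00109). It was -0.43 ± 0.19 at 240 min (adjusted p = 0.121) and -0.39 ± 0.19 at 360 min (adjusted p = 0.16). Over the course LPS lowered Rab15 in WT cells by 1.24 ± 0.19 at 360 min (adjusted p = 6.85e-07) and in D310N cells by 0.53 ± 0.19 (adjusted p = 0.013), a call that was lost after quantile normalisation (-0.34, adjusted p = 0.104), and the difference of these responses, 0.72 ± 0.27, did not pass (adjusted p = 0.194). Rab15 lies on chromosome 12 from 76797960 to 76822908 on the minus strand, with Fntb, a farnesyltransferase subunit, annotated across it on the plus strand. Whether counting used strand is not stated.

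Rab19, a little-studied Golgi Rab, differed after LPS. In D310N cells its values were 6.58, 6.39 and 6.59 (0 min), 6.20, 6.16 and 6.16 (30 min), 5.78, 5.81 and 5.81 (60 min), 6.21, 6.19 and 6.06 (120 min), 7.05, 7.12 and 7.06 (240 min) and 6.25, 6.16 and 6.45 (360 min). In WT cells they were 6.67, 6.73 and 6.44 (0 min), 6.35, 6.44 and 6.20 (30 min), 5.87, 6.15 and 6.10 (60 min), 6.81, 7.01 and 6.89 (120 min), 7.66, 7.76 and 7.72 (240 min) and 7.54, 6.94 and 6.72 (360 min). Both genotypes dipped at 60 min and peaked at 240 min, but at 120 min WT cells had already passed their 0 min values and D310N cells had not. The genotype difference was -0.75 ± 0.12 at 120 min (adjusted p = 4.54e-05), -0.64 ± 0.12 at 240 min (adjusted p = 0.000537) and -0.78 ± 0.12 at 360 min (adjusted p = 6.06e-05). Without WT-360-1, the 360 min difference was -0.54 ± 0.10 (adjusted p = 0.000288), and with library weights it was -0.46. At 120 min Rab19 was 0.37 ± 0.12 lower than at 0 min in D310N cells (adjusted p = 0.0104) and 0.29 ± 0.12 higher in WT cells (adjusted p = 0.0383). After quantile normalisation these were -0.19 in D310N cells, which was not called (adjusted p = 0.151), and 0.53 in WT cells.

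The Rab19 promoter is shown because it holds a pair of overlapping matches to TTTC repeated after 2 free bases, the letters of the interferon-stimulated response element. It was searched on both strands and found in 2 of the 40 matched members, Rab19 and Rab10os, and in 3.99% of all genes. AP-1 letters, TGANTCA, were found in Rab15 and Rab34 alone among the 40 and in 8.97% of all genes. The window is chr6:39381103-39381402 on the plus strand of GRCm38.p6, and capitals mark the matches.
Rab19: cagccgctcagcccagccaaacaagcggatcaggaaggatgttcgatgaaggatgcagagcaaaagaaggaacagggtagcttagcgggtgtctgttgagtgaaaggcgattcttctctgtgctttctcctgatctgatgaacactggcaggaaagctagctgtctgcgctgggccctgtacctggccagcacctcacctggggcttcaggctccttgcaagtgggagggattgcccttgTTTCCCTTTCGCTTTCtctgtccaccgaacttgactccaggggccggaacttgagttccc
No value in these data tests binding there.

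Rab29, which acts at the Golgi and at stressed lysosomes, was lower in D310N cells from 60 to 240 min. Its values in D310N cells were 8.07, 7.91 and 7.97 at 120 min, against 8.48, 8.53 and 8.41 in WT cells. At 240 min they were 8.90, 8.85 and 8.91 in D310N cells and 9.39, 9.28 and 9.18 in WT cells, and at 0 min 8.05, 8.20 and 8.16 in D310N cells and 8.25, 8.33 and 8.18 in WT cells. The genotypes did not overlap at 120 or 240 min and did at 0 min. The difference was -0.23 ± 0.07 at 60 min (adjusted p = 0.0176), -0.49 ± 0.07 at 120 min (adjusted p = 2.45e-06) and -0.40 ± 0.07 at 240 min (adjusted p = 7.49e-05), and at 360 min it was -0.13 ± 0.07 (adjusted p = 0.177). Without WT-360-1, the 360 min difference was -0.22 ± 0.06 and was called (adjusted p = 0.0143).

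Rab38 was lower in D310N cells late in the course. At 240 min its values were 4.04, 4.25 and 4.02 in D310N cells and 4.96, 5.03 and 5.30 in WT cells, and at 0 min they were 2.44, 2.45 and 2.39 in D310N cells and 2.72, 2.41 and 2.88 in WT cells. The groups were apart at 240 min and overlapped at 0 min. The genotype difference was -0.99 ± 0.19 at 240 min (adjusted p = 0.000488), and -0.64 ± 0.19 at 360 min (adjusted p = 0.0216), a call that was lost without WT-360-1. The difference of the 240 min LPS responses, -0.75 ± 0.27, did not pass (adjusted p = 0.166). Gm15661 is annotated on the strand opposite Rab38.

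Smaller differences kept 1 sign throughout. Rab13, known from tight junctions, was lower in D310N cells by 0.18 to 0.24 at all 6 times with an average of -0.205 ± 0.03 (adjusted p = 7.92e-07). It was called from 60 to 240 min, calls lost in 4 to 8 of 46 alternatives, and at 360 min (adjusted p = 0.0499), a call lost in 34 of 46 with an adjusted p of up to 0.42. Rab3d was lower by 0.14 to 0.19 at all 6 times and called at none of them, with an average of -0.17 ± 0.03 (adjusted p = 4.46e-06). Rab37, which acts in secretion, differed by -0.72 at 60 min, but the 5 of 36 libraries in which it reached the floor were all WT, at 0, 30 and 60 min, so this is given with no test. Rab20 averaged -0.18 ± 0.04 (adjusted p = 0.000386) and Rab9 -0.14 ± 0.02 (adjusted p = 1.25e-05). Rab6a was higher at all 6 times, by 0.09 ± 0.02 on average (adjusted p = 0.000211). With 3 means against 3 (limma), adjusted p was 0.00381 for Rab13, 0.011 for Rab3d, 0.00704 for Rab20, 0.00386 for Rab9 and 0.0239 for Rab6a. Rab6b was higher by 0.44 ± 0.15 at 240 min (adjusted p = 0.0325) and by 0.21 ± 0.06 on average, and the average was not called with 3 means against 3 (adjusted p = 0.136).

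**Figure D4:**
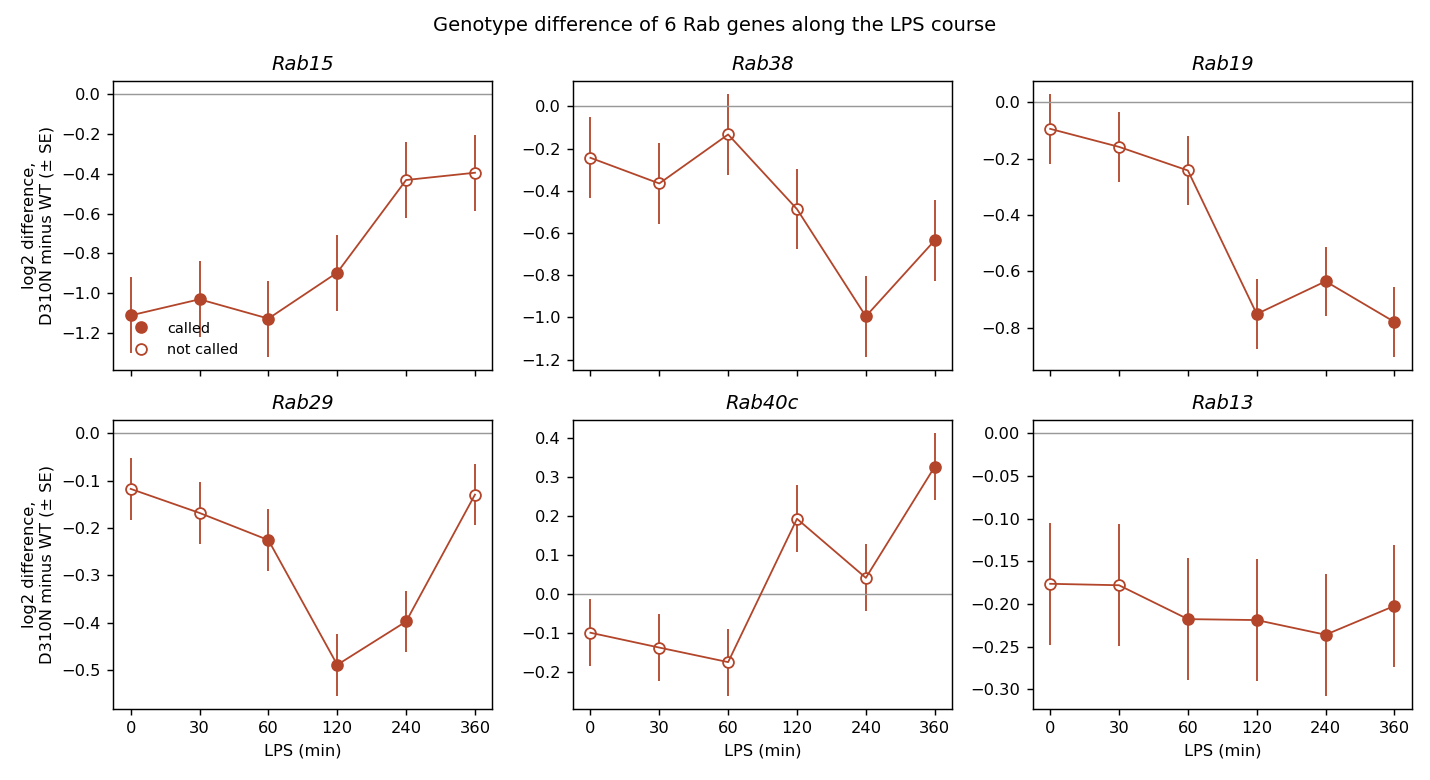
Log2 difference between D310N and WT (y axis, ± SE from limma, 3 libraries per group) against time with LPS in min (x axis, equally spaced) for 6 Rab genes; filled points passed an adjusted p of 0.05. Rab15 passed at 0 to 120 min, Rab19 from 120 min, Rab29 at 60 to 240 min and Rab38 at 240 and 360 min, Rab40c changes sign between 60 and 120 min, and Rab13 stays between -0.18 and -0.24.

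Whether the LPS response itself differed between genotypes was tested at each time. At 30 min 0% of all tested genes differed, at 60 min 0.0686%, at 120 min 0.935%, at 240 min 1.95% and at 360 min 2.01%. Of the Rab genes, Rab29 passed at 120 min and Rab19 at 360 min by limma, and 0 passed at 30, 60 or 240 min. At those 3 times 0, 0 and 7 had an unadjusted p under 0.05, with no share of all genes at that threshold given. A joint F test over the 5 times called 4.84% of all genes and 3 Rab genes, Rab19, Rab29 and Rab40c. For Rab40c the genotype difference was -0.18 ± 0.09 at 60 min (adjusted p = 0.202), 0.19 ± 0.09 at 120 min (adjusted p = 0.128) and 0.33 ± 0.09 at 360 min (adjusted p = 0.0093). The last value rested on WT-360-1, without which Rab40c was not called at 360 min while the joint test still was (adjusted p = 0.00575). Of the other 5 members called at 360 min, Rab13, Rab19 and Rab31 were called without that library and Rab38 and Rab9 were not. Rab1a, Rab20, Rab29, Rab32, Rab43 and Rab8a were called only without it, which gave 1 higher and 8 lower, beside 17.9% of all genes called in either direction.

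The genes that switch and bind Rabs were counted between the genotypes too, beside the 22.7% of all genes called higher and 25.4% called lower on average. No list was tested against all genes, so the counts do not set these genes apart. Over the 6 times, 9 of 38 exchange factors were higher and 8 lower in D310N cells, 11 of 38 activating proteins higher and 9 lower, 10 of 44 effectors higher and 7 lower, 3 of 7 prenylation and inhibitor genes higher and 2 lower, and 0 of 5 Rab-like GTPases higher and 2 lower. Rin2 was higher in D310N cells by 0.33 ± 0.02 (adjusted p = 1.38e-15), Rilpl1, an effector of Rab8 and Rab10, by 0.23 ± 0.03 (adjusted p = 8.17e-08) and Gdi2, a GDP dissociation inhibitor, by 0.09 ± 0.01 (adjusted p = 2.44e-06). Tbc1d16 was lower by 0.25 ± 0.05 (adjusted p = 3.33e-05), Mical1 by 0.21 ± 0.03 (adjusted p = 1.27e-06) and Ift27, a Rab-like GTPase of cilia, by 0.21 ± 0.05 (adjusted p = 0.00159). These limma p-values take all libraries of a genotype as separate, and the test of 3 means against 3 is not given for these genes.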

How the data were processed

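Values were the log2 normalised expression values deposited by the authors, 1 table of 16439 rows for 36 libraries of single-end 75 base reads. Per the submitters' processing notes, STAR 2.5.2a, RSEM 1.2.31 and DESeq2 1.10.1 were used with build mm10; the transformation and the strand setting are not given in the sources used here. Read depth is unknown, so no counting interval is given. From these values, 23 names turned into dates by a spreadsheet were left out, and 11656 genes reaching 10 on the linear scale in at least 3 libraries were tested. Group means of the 12 groups were fitted with limma 3.58.1 in R 4.3.3 (24 residual degrees of freedom, trended prior), with Benjamini-Hochberg adjustment over all tested genes within a comparison, and an adjusted p under 0.05 was called. The procedure was tested on simulated data. Named Rab genes were the 6 largest rises and falls at 240 min in WT cells, those called in the joint test and Rab5a. The 6 with the smallest adjusted p in the average between genotypes (limma) were named too, and others were named by compartment. The members, lists and compartments were chosen with earlier results of these data known. Positions follow GENCODE vM21 on GRCm38. Alternatives covered filters, pseudocounts, scaling, library weights, replicate block and leaving out each library.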

Additional observations from a re-analysis of the deposited data

Results flagged for a closer look

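For 3 Rab genes the LPS response differed between D310N and WT cells by a test of the difference itself (limma, adjusted over all tested genes). At 360 min Rab19 differed from 0 min by -0.23 ± 0.12 in D310N cells, which was not called (adjusted p = 0.0824). In WT cells it rose by 0.45 ± 0.12 (adjusted p = 0.00137), or by 0.795 after quantile normalisation. With library weights the WT rise was 0.207 and was not called (adjusted p = 0.0662). The difference of responses was -0.68 ± 0.17 (adjusted p = 0.0341). Over the alternatives this adjusted p ranged between 0.00213 and 0.0985, and the call was lost in 6 of 45. Without WT-360-1, the difference was -0.45 (adjusted p = 0.0442). The joint test over the 5 times gave an adjusted p of 0.0142 for Rab19, with a range of 0.000362 to 0.0294 and the call kept in all 45 alternatives.

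Rab29 had a difference of responses of -0.37 ± 0.09 at 120 min (adjusted p = 0.041), with a range of 0.00179 to 0.158 over the alternatives and the call lost in 12 of 45. Its joint test gave an adjusted p of 0.0272, between 0.00191 and 0.0728 over the alternatives. For Rab40c the joint test gave an adjusted p of 0.0305, between 0.00367 and 0.0822, and the call was lost in 5 of 45. No single time passed for Rab40c, the nearest being 360 min at 0.43 ± 0.12 (adjusted p = 0.063).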

How the results depend on the processing

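Alternatives were followed for 222 called single differences. These were the genotype differences and joint tests, the 240 min LPS differences and, for the named Rab genes alone, other LPS times. Of the 222, 150 held in every alternative, 52 lost significance in at least 1 and 20 reversed. Reversals at other LPS times were not looked for in the remaining Rab genes. All 20 that were found reversed under quantile normalisation at 240 min. In D310N cells the values became -0.238 for Rab11a, -0.42 for Rab14, -0.011 for Rab18, -0.138 for Rab1a, -0.171 for Rab2a, -0.0207 for Rab35, -0.167 for Rab5b, -0.155 for Rab5c, -0.131 for Rab6a and -0.497 for Rab7. In WT cells they became -0.152 for Rab11a, -0.509 for Rab14, -0.0579 for Rab1a, 0.0935 for Rab23, -0.145 for Rab2a, -0.0508 for Rab35, -0.273 for Rab5b, -0.114 for Rab5c, -0.208 for Rab6a and -0.49 for Rab7. The cause was not tested. Counts of Rab genes called for D310N against WT at 0 min (1) became 3 with quantile normalisation, 11 with library weights, 3 with the replicate block and 5 with only the libraries compared. At 30 min (2) they became 1 with no filter, with a floor of 50, with trimmed mean scaling or with no trend, and 11 with weights. At 60 min (4) they became 2 with a floor of 50 and 18 with weights, at 120 min (9) 4 with only the libraries compared, and at 240 min (9) 5 with quantile normalisation and 17 with weights. At 360 min (6) the libraries compared alone gave 0 by limma, with 3 at an unadjusted p under 0.05. Of all tested genes, 12 were called there and 1590 had an unadjusted p under 0.05. The average (26) became 14 with 3 means against 3. LPS at 30 min gave in D310N cells (1) 3 with quantile normalisation, weights or only the libraries compared, and in WT cells (1) 2 with no filter, 7 with quantile normalisation and 3 with weights. The joint test (3) gave 6 with weights. Shares of all genes called are not given for the counts with weights, so these do not set Rab genes apart.

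Leaving out 1 library gave 1 to 6 at 0 min, 1 to 6 at 30 min, 1 to 10 at 60 min, 4 to 13 at 120 min, 4 to 13 at 240 min, 2 to 9 at 360 min, 22 to 30 on average and 2 to 6 in the joint test for D310N against WT. For LPS it gave 1 to 2 at 30 min in both genotypes, then 16 to 22 in D310N and 17 to 24 in WT cells at 60 min, 32 to 37 in both at 120 min, 37 to 39 in D310N and 41 to 42 in WT cells at 240 min, and 38 to 40 in D310N and 41 to 43 in WT cells at 360 min. Without WT-360-1, counts for D310N against WT were 6, 6, 10, 13, 13 and 9 at 0, 30, 60, 120, 240 and 360 min. The shares of all genes called were then 15.5%, 16.9%, 17.9%, 23.7%, 24% and 17.9%. The joint test called 6, beside 10.4% of all genes. For the other libraries left out, no share of all genes is given beside the ranges. The replicate numbers are not said to pair libraries, and same-numbered libraries correlated above 0.1 in every pair in 1 of 16 comparisons. Between LPS times and 0 min these correlations were 0.0366 to 0.419 within D310N and -0.249 to 0.126 within WT. The replicate block gave 25 on average and 4 in the joint test, and moved no count but that at 0 min by over 1.5 times. Depth is unknown, and 3 libraries a group limit the precision.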
